A study of Mus musculus with 16 samples.

Results

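The response of MEKK1-/- mammary fibroblasts to medium conditioned by breast tumor cells was described from the 4 arrays of untreated MEKK1-/- cells and the 4 arrays of MEKK1-/- cells given that medium, 8 of the 16 arrays of the series, chosen by their labels. All 18132 genes of the table were compared. Female 129S6 mice of 8 to 10 weeks gave the cells, fibroblasts grown in primary culture from the inguinal mammary gland. MEKK1-/- mice lack MEKK1, the kinase that the gene MAP3K1 encodes, and the sources used here do not give the deleted part of the gene or state that Cre was involved. Untreated cells were kept in DMEM with fetal bovine serum, and treated cells received conditioned medium, the same growth medium harvested from cultures of the human breast cancer line MDA-MB-231, for 8 h. The other 8 arrays hold MEKK1+/+ cells under the same conditions, 4 untreated and 4 with conditioned medium. The methods name 3 mice per genotype for 4 cultures per condition, so some cultures of a group share a mouse, and each p measures the spread between cultures.

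MEKK1 sits near the top of a kinase relay that activates JNK and ERK, and it can also feed into NF-kB, a transcription factor held in the cytoplasm by IkB proteins until cytokine or danger signals release it. Fibroblasts that meet inflammatory or tumor-derived factors are known to switch on NF-kB target genes, among them chemokines that draw in leukocytes, adhesion molecules and matrix proteases. The same cells also carry a contractile program of actin-binding proteins, in which the serum response factor SRF acts through a DNA element called the CArG box.

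An Illumina Mouse 8 array reports the brightness of probes, which rises with the amount of transcript. Values are log2 intensities after quantile normalization, and an array's level for one gene cannot be set against its level for another. In bulk RNA such as this, more cells of a kind and more RNA per cell cannot be told apart. Genes with an adjusted p under 0.05 (limma, Benjamini-Hochberg over all genes) are said to have risen or fallen. Median deposited intensity was 128 to 159 on the untreated MEKK1-/- arrays and 123 to 170.1 on those with conditioned medium. Correlations of log2 values between arrays within each of these MEKK1-/- groups ran from 0.978 to 0.996. As a mark of background, the 99th percentile of 1075 olfactory receptor genes lay between 7.24 and 7.34.

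Of 14 fibroblast markers, 12 were above the olfactory level on every untreated array and 13 on every treated one. COL1A1 read 13.91 to 14.59 and VIM 13.11 to 13.51 over the 8 cultures. LUM, with an untreated mean of 7.28, and POSTN, with means of 7.28 untreated and 7.29 treated, lay near background. Replicates 1 and 2 stood apart from replicates 3 and 4 in transcripts of other cell types, in the untreated and the treated culture alike. In replicate 1 the mean level of 14 epithelial markers was 8.50 untreated and 8.54 with conditioned medium, against 6.99 to 7.31 on the other 6 arrays. KRT14, an epithelial keratin, read 11.90 and 11.48 there and no more than 7.95 elsewhere, and KRT8 read 11.82 and 11.61 there. Other members of the list, KRT5, TRP63, CSN2, CSN3 and ELF3, were below the olfactory level on all 8 arrays. The 10 endothelial markers were also highest in replicate 1, with mean levels of 8.14 and 8.10 against 7.57 to 7.69. In replicate 2 the 17 macrophage markers were highest, with mean levels of 8.70 and 8.58 against 7.68 to 8.34. LYZ2, a macrophage lysozyme, read 13.87 and 13.52 in replicate 2 and 10.76 to 12.58 elsewhere, and EMR1, the macrophage surface protein F4/80, read 9.27 and 9.02 against 7.10 to 8.23. PTPRC, the pan-leukocyte marker CD45, stayed at background on all 8 arrays (6.78 to 6.91). So did ITGAM, FCGR1, FCER1G, CD163 and AIF1 of the macrophage list. No epithelial, endothelial or macrophage marker of these lists passed the test for conditioned medium, and with the replicate block 1 macrophage marker (CD14) rose and 1 epithelial marker (KRT8) fell. Their part in the results was not tested, and the main results are therefore also given without both arrays of replicate 1 or of replicate 2.

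MAP3K1 itself did not mark the genotype. Untreated replicates 1 to 4 read 8.06, 8.31, 8.17 and 8.41 and treated replicates 8.08, 7.79, 8.29 and 8.13, while the MEKK1+/+ means were 7.71 and 7.74. The position of its probes is not known, and a probe outside the deleted part checks nothing, so the genotype rests on the labels. With conditioned medium it differed by -0.17 on the log2 scale (95% interval -0.48 to 0.15, limma adjusted p = 0.688).

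With conditioned medium, 851 of the 18132 genes passed the test, 4.69% of those measured. There were 395 rises, 2.18% of all genes, and 456 falls, 2.51%. Rises had a median log2 change of 0.57 and falls of -0.51, whereas the median over all genes was -0.0042. A log2 change of at least 1, a doubling or a halving, was reached by 58 of the rises and 37 of the falls. The 4 treated arrays did not overlap the 4 untreated arrays in 1890 genes, 10.4% of all, among them 795 of the 851. Same-numbered MEKK1-/- arrays deviated from their group means together, so the numbers were also used as pairs. With the replicate block within genotype 1438 genes passed, 7.93% of all, with 729 rises and 709 falls, and 787 of the 851 were among them. Without both arrays of replicate 1 there were 358 rises and 410 falls, and without those of replicate 2 there were 229 and 283. Of 89 genes named by rule that passed, 62 still passed without replicate 1, 58 without replicate 2 and 44 in both cases. All 89 kept their direction. Apart from INSIG1 and SQSTM1 their groups did not overlap, so leaving out arrays could not reverse the direction. On the values as deposited, with no quantile normalization, only 45 genes passed, 34 of them rises, which turned the share of rises from 46.4% to 75.6%.

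**Figure D1:**
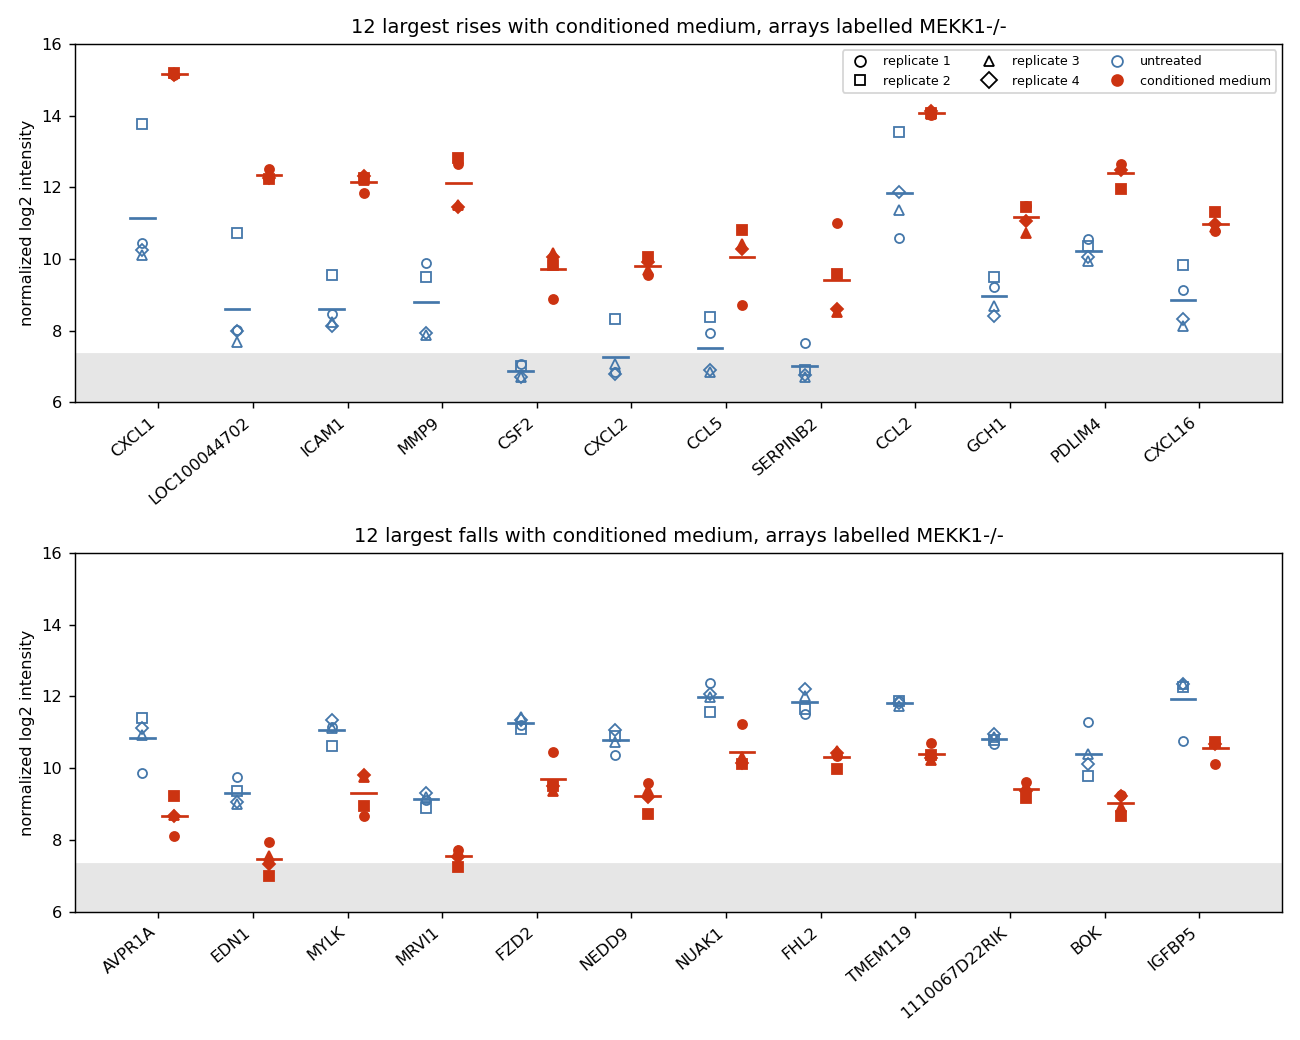
Normalized log2 intensity (y axis) of the 12 genes with the largest rises (top) and the 12 with the largest falls (bottom) among genes past the test whose groups did not overlap, on each MEKK1-/- array. Open blue symbols are untreated cultures and filled red symbols cultures with conditioned medium, symbol shapes give the replicate number, short lines are group means, and the grey band lies below the olfactory receptor level of 7.34. Untreated replicate 2 sits at 13.76 for CXCL1, above the other 3 untreated arrays at 10.11 to 10.43.

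Chemokines and the adhesion molecule ICAM1 led the rises. CXCL1, a chemokine that attracts neutrophils through CXCR2, read 10.43, 13.76, 10.11 and 10.24 in untreated replicates 1 to 4 and 15.14, 15.20, 15.18 and 15.14 with conditioned medium. The treated values lay within 0.06 of each other while untreated replicate 2 was more than 3 log2 units above its group. The rise was 16.3-fold (log2 4.03 ± 0.97 SE, limma adjusted p = 0.0276). On the treated arrays CXCL1 ranked between 13 and 16 among all genes in brightness, near the top of the scale, whose highest value was 15.47. Whether its probes were saturated is not given in the sources used here. On the values as deposited it did not pass (limma adjusted p = 0.0837). CXCL2, a close relative with the same receptor, read 6.86, 8.32, 7.06 and 6.80 untreated and 9.56, 10.07, 9.69 and 9.92 treated. Here 3 of the 4 untreated cultures were at background, so the measured log2 change of 2.55 ± 0.52 (limma adjusted p = 0.0104) was taken partly against that floor. With every value raised to at least the olfactory level of its array, the rise was at least 4.84-fold (log2 2.27). The other 3 measured members of the neutrophil group of 5 did not pass. Of these CXCL3 and CXCL15 stayed below the olfactory level on every MEKK1-/- array, and PPBP lay near it (means of 7.54 untreated and 7.32 treated).

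A short stretch before the start site of both chemokine genes holds a match to the motif that NF-kB is known to bind. The sequences below come from genes that rose, and only promoters with a match are printed. Of the 12 largest rises 7 had a promoter in the set used here. The motif stood within 250 bases in 3 of these, CXCL1, CXCL2 and GCH1. Promoters of CCL5, CCL2, MMP9, CXCL16, NFKBIZ and CD40 were not in that set. Promoters were taken from RefSeq (GRCm38.p6), 120 bases up to the start site, 5′ to 3′ on the gene's strand. Capitals mark matches to the NF-kB motif on either strand, and where 2 matches overlap the capitals run through both.
Cxcl1, chr5:90891125-90891244, plus strand, first match 71 bases before the start: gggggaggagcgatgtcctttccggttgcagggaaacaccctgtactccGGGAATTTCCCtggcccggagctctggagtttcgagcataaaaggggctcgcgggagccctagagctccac
Cxcl2, chr5:90903779-90903898, plus strand, first match 97 bases before the start: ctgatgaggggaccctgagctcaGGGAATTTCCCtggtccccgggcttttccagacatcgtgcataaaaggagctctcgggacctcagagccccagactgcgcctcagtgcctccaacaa
Nfkbia, chr12:55492648-55492767, minus strand, match 29 bases before the start: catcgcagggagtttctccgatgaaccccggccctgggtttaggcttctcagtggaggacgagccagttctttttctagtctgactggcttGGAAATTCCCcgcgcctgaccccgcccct
Nfkb2, chr19:46304617-46304736, plus strand, first match 39 and last match 11 bases before the start: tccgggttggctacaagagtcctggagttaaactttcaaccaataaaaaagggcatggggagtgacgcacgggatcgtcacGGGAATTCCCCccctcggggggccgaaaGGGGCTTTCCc

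In the 250 bases before the start site, the NF-kB motif was found in 8.22% of the 16669 promoters of 13433 measured genes. The share was 12.9% of 395 promoters of genes that rose and 9.78% of 501 promoters of genes that fell. Among genes that rose by at least 1 on the log2 scale it was 12 of 54 promoters (22.2%), those of CXCL1, CXCL2, GCH1, H1F0, IER3, NFKB2, NFKBIA, RAB15, SOD2 and TNIP1. Among genes that fell by at least 1 the NF-kB motif stood in 4 of 33 promoters (12.1%). The AP-1 motif (TGACTCA or TGAGTCA, both strands), bound by Jun and Fos proteins, was found in 4.03% of all promoters, 4.3% of those of rises and 2.2% of those of falls. At the cut of 1 on the log2 scale it stood in 5 of 54 promoters of rises (9.26%) and 1 of 33 of falls (3.03%). A match describes the letters of the window and no binding was measured.

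Further chemokines of the CXC and CX3C kind rose in 2 of 10 measured genes. CXCL16, a membrane-bound ligand of CXCR6, read 9.13, 9.84, 8.14 and 8.32 untreated and 10.78, 11.31, 10.88 and 10.97 treated (log2 2.13 ± 0.47, limma adjusted p = 0.0169). CX3CL1, fractalkine, went from 9.93, 8.93, 9.79 and 9.70 to 10.63, 11.21, 11.60 and 11.80 (log2 1.72 ± 0.28, limma adjusted p = 0.00233). All treated values of both genes exceeded all untreated ones, which the rule for the largest rises required of CXCL16. CXCL12, the homeostatic ligand of CXCR4 and named here after its values were seen, read 10.0, 9.89, 10.18 and 10.05 untreated and 8.26, 9.52, 8.31 and 8.51 treated. It was lower in every pair and least so in replicate 2 (log2 -1.38, limma adjusted p = 0.057, and 0.00624 with the replicate block). In the paired fit 4 of the 10 rose.

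Of 19 CC chemokines, CCL5 and CCL2 rose. CCL5, which attracts T cells and monocytes, read 7.92, 8.37, 6.84 and 6.92 untreated, so that replicates 3 and 4 were at background, and 8.70, 10.81, 10.41 and 10.27 treated. Replicate 1 gained least, 0.78 against 2.44 to 3.57 in the other pairs, and the log2 change was 2.54 ± 0.51 (limma adjusted p = 0.0101), or at least 2.34 against the olfactory level. CCL2, the main monocyte attractant, read 10.60, 13.54, 11.36 and 11.88 untreated and 14.02, 14.08, 14.05 and 14.12 treated. As with CXCL1, treated cultures were nearly equal and untreated replicate 2 was high, so its pair changed by 0.54 and the others by 2.24 to 3.42 (log2 2.22 ± 0.60, limma adjusted p = 0.0469). CCL3 and CCL4, inflammatory chemokines of macrophages and other cells, did not pass. CCL3 read 8.16, 10.73, 6.87 and 6.87 untreated and 11.12, 10.94, 8.48 and 8.71 treated (log2 1.66 ± 1.03, limma adjusted p = 0.497). CCL4 read 8.62, 11.19, 7.09 and 7.26 untreated and 10.87, 11.44, 8.42 and 8.82 treated (log2 1.35 ± 0.98, limma adjusted p = 0.593), and passed with the replicate block at 0.0476. Both genes were brightest in replicates 1 and 2, the cultures with the higher macrophage marker levels. CCL6 stayed at 7.31 to 9.66 untreated and 7.42 to 9.63 treated (log2 0.15 ± 0.71, limma adjusted p = 0.963). In the paired fit 5 CC chemokines rose. Without replicate 1, CXCL1 (limma adjusted p = 0.097) and CCL2 (0.168) no longer passed.

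**Figure D2:**
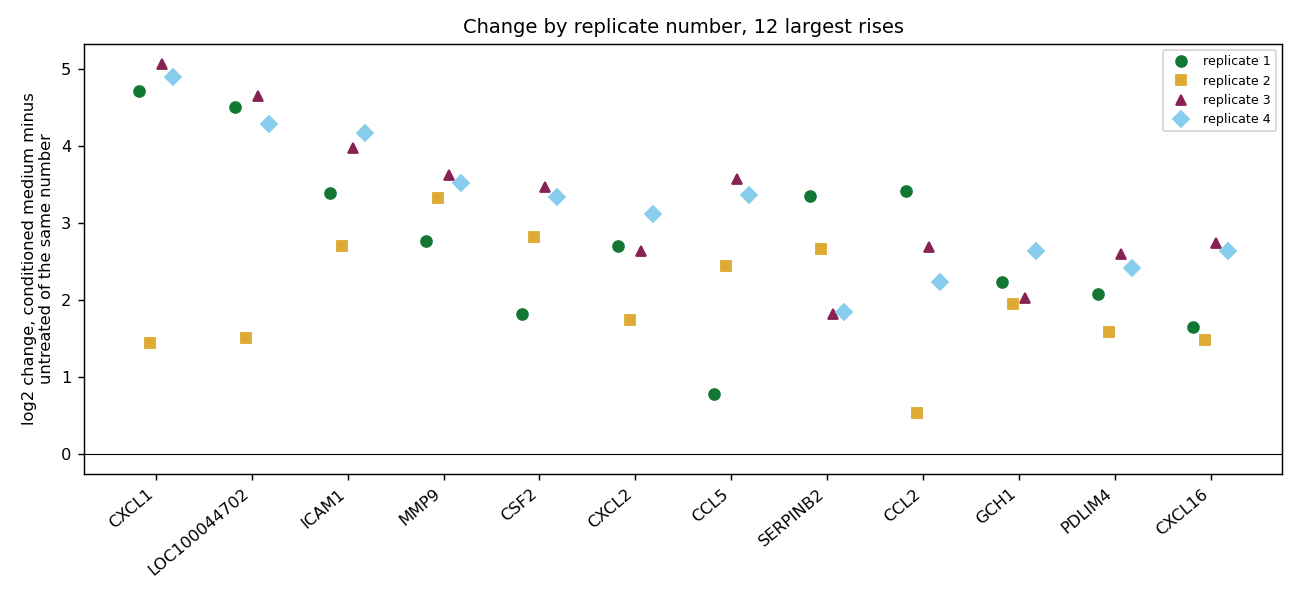
Log2 change (y axis) of the 12 genes with the largest rises, as the treated array minus the untreated array of the same replicate number, 1 symbol per pair. Every change lies above 0, which the choice of genes without overlap between the groups required. Replicate 2 (squares) shows the smallest change for CXCL1, at 1.44 against 4.71 to 5.07.

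Leukocyte adhesion genes rose in 4 of 15 cases and fell in none. ICAM1, the endothelial and fibroblast ligand of leukocyte beta2 integrins, read 8.46, 9.56, 8.23 and 8.14 untreated and 11.85, 12.26, 12.20 and 12.30 treated. The groups lay more than 2 log2 units apart, and the rise was 3.55 ± 0.33 (limma adjusted p = 5.94e-05). F11R, a junctional adhesion molecule, rose by 0.49 ± 0.10 (limma adjusted p = 0.0129) and ICAM5 rose (limma adjusted p = 0.0183) from a level at background in all 4 untreated cultures, by at least 0.22 on the log2 scale. SELE, an endothelial selectin, stayed below the olfactory level on every array (6.57 to 7.03), so that no size is given for its rise, which missed the test with the replicate block (adjusted p = 0.0661).

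NF-kB genes rose in 6 of 25 cases, with a median log2 change of 0.34 over the list against -0.0042 over all genes, and 21 of 25 members were higher. NFKBIZ, a nuclear IkB protein that assists transcription of secondary inflammatory genes, read 8.91, 10.90, 9.39 and 9.56 untreated and 11.55, 11.63, 12.09 and 11.58 treated (log2 2.02 ± 0.45, limma adjusted p = 0.0173). NFKBIA encodes IkB-alpha, the inhibitor that NF-kB induces against itself, and went from 9.56, 10.72, 9.02 and 8.83 to 11.19, 11.64, 11.31 and 11.56 (log2 1.89 ± 0.50, limma adjusted p = 0.0442). NFKB2, a subunit of the non-canonical pathway whose promoter is shown above, read 8.33, 8.78, 7.97 and 8.11 untreated and 9.25, 9.60, 9.59 and 9.87 treated (log2 1.28 ± 0.19, limma adjusted p = 0.00152). The inhibitor TNIP1 rose by 1.26 ± 0.33, and BCL3 and IKBKE, named outside the rule after their values were seen, by 0.88 ± 0.24 and 0.66 ± 0.12. In 21 of the 25 genes the highest untreated culture was replicate 2, where 24.5% of all genes had theirs. The mean level of the list was 8.66 in that culture against 8.16 to 8.19 in the other untreated ones, and 8.69 to 8.88 with conditioned medium. Without both arrays of replicate 1, 3 members rose, and without those of replicate 2, 6 rose and 1 fell. On the values as deposited 1 member, NFKB2, rose.

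Cytokine genes followed in smaller number, with 2 of 23 interleukins and colony-stimulating factors rising, 8.7% of the list against 4.69% called over all genes. CSF2, which encodes the growth factor GM-CSF of granulocytes and macrophages, was at background in every untreated culture (7.06, 7.01, 6.70 and 6.72) and read 8.87, 9.83, 10.16 and 10.06 with conditioned medium. Against the olfactory level its rise was at least 5.52-fold (log2 2.46), and the difference between the measured means of 6.87 and 9.73 passed the test (limma adjusted p = 0.00342). TSLP, an epithelial-type cytokine that acts on dendritic cells, rose by 0.89 ± 0.17 with pair changes of 0.81 to 0.95, from a level at background in 3 of 4 untreated cultures (at least 0.70 against the olfactory level). Under the replicate block 6 members rose, and those added were IL1B, IL6, IL11 and LIF. IL6, for which all 4 treated cultures (10.55 to 11.29) were above all untreated ones (7.78 to 10.36), had a log2 change of 2.10 ± 0.63 (limma adjusted p = 0.0752, and 0.0219 with the block).

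Receptors and signalling proteins passed in small numbers and in both directions. The share was 6.06% of the cytokine receptor and signalling list and 15% of the TNF superfamily, against 4.69% over all genes. Of 33 cytokine receptor and signalling genes, JAK2 rose by 0.95 ± 0.19 and IRAK2, a kinase downstream of the interleukin-1 and Toll-like receptors, fell by 1.09 ± 0.15 (log2 change -1.09, limma adjusted p = 8.58e-04). JAK2 read 9.11 in treated replicate 1 against 10.02 to 10.18 in the other treated cultures. In the TNF superfamily of 20 genes, CD40, a costimulatory receptor, rose from 7.43, 7.68, 7.55 and 7.49 to 9.08, 8.83, 9.18 and 9.35 (log2 1.58 ± 0.23, limma adjusted p = 0.00107). TNFRSF12A, the receptor of the cytokine TWEAK, went the other way, from 13.43, 12.48, 12.76 and 12.68 to 12.07, 11.53, 11.34 and 11.49 (log2 -1.23 ± 0.20, limma adjusted p = 0.00256), and LTBR, the lymphotoxin beta receptor, changed by -0.43 ± 0.10. With the block 6 receptor and signalling genes rose and 2 fell, and in the TNF superfamily 3 rose and 3 fell.

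Acute-phase and innate defense genes rose in 3 of 28 cases: ZC3H12A, an RNase that degrades inflammatory transcripts (log2 1.97 ± 0.40), PTX3, a soluble pattern receptor (1.45 ± 0.38), and SOD2, the mitochondrial superoxide dismutase (1.44 ± 0.30, limma adjusted p = 0.0109). SOD2 read 12.41, 13.64, 12.51 and 12.43 untreated and 14.21, 14.37, 14.07 and 14.11 treated, again with untreated replicate 2 above its group. In the paired fit 11 of the 28 rose. LCN2, a siderophore-binding protein named after its values were seen, was among these (log2 2.41 ± 0.68, limma adjusted p = 0.0575, and 0.00211 with the block). Of 39 interferon-stimulated genes none passed, and with the block 7 rose. Only 27 of the 39 were above the olfactory level on every array of any group, MEKK1+/+ groups included, so a change in the rest may not show. An unadjusted p under 0.05 was found in 4 of the 39, against 2940 of all 18132 genes (limma). Of 20 antigen presentation genes TAP2, a peptide transporter, rose (log2 1.11 ± 0.27), the median over the list was 0.36, and 8 rose with the block. With the block 3 prostaglandin genes rose. PTGES, the inducible synthase of prostaglandin E2, was the 1 riser among 17 prostaglandin genes (1.35 ± 0.37, limma adjusted p = 0.0487). The shares that passed were 5% of the antigen presentation and 5.88% of the prostaglandin list, against 4.69% over all genes.

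Genes of the MAP kinase relay in which MEKK1 acts passed the test in 4 cases, each with a log2 change of less than 1. Of 28 cascade genes ARAF rose by 0.71 ± 0.09, MAPK3, which encodes ERK1, by 0.46 ± 0.10 and MAPK11 by 0.40 ± 0.10, whereas MAP3K6 fell (log2 change -0.47 ± 0.11). Of 20 MAP kinase phosphatases and ERK feedback genes, ETV5 (0.62 ± 0.15) and IL17RD (0.25 ± 0.06) rose. Among 24 AP-1 and immediate early genes IER3, an apoptosis regulator that NF-kB induces, rose by 1.34 ± 0.29 and the Kruppel-like factor KLF2 fell (log2 change -1.05 ± 0.26). The Jun and Fos genes JUN, JUNB, FOS and FOSB did not pass, and FOSB lay near background (means of 7.41 untreated and 7.23 treated). With the replicate block the immediate early list had 3 rises, among them EGR1 and EGR2, and 2 falls, KLF2 and KLF4. The ERK feedback list then had 3 rises and 1 fall (DUSP1), and the cascade list 4 rises and 1 fall. Without the block 14.3% of the cascade, 10% of the ERK feedback and 8.33% of the immediate early list passed, against 4.69% over all genes.

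Matrix-degrading enzymes rose in 4 of 33 metalloprotease and inhibitor genes, and the inhibitor TIMP3 fell. MMP9, a gelatinase that cleaves basement membrane collagen, read 9.90, 9.50, 7.87 and 7.94 untreated and 12.66, 12.82, 11.49 and 11.46 treated. Replicates 1 and 2 were higher than replicates 3 and 4 in both states, and the pair changes were close, from 2.76 to 3.62 (log2 3.31 ± 0.64, limma adjusted p = 0.00772). ADAMTS4, an aggrecanase, moved by a similar amount in all pairs, from 11.25, 11.30, 11.36 and 11.13 to 12.49, 12.57, 12.91 and 12.65 (log2 1.40 ± 0.09, limma adjusted p = 1.37e-06). MMP13, a collagenase, rose by 1.45 ± 0.36 and ADAMTS7, named outside the rule, by 0.94. TIMP3, which is bound to the matrix and inhibits such enzymes, read 12.71, 13.08, 13.09 and 13.16 untreated and 12.10, 11.76, 12.19 and 12.04 treated (log2 -0.99 ± 0.14, limma adjusted p = 0.00127). With the block 8 members rose and 3 fell. Without replicate 1 MMP13 did not pass (limma adjusted p = 0.112), and without replicate 2 it did not either (0.114).

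Structural matrix genes passed in 2 cases, 3.23% of the collagen and 3.57% of the glycoprotein list, against 4.69% over all genes. With the block 3 collagen and 5 glycoprotein genes rose. Of 31 collagen and crosslinking genes COL18A1, the source of endostatin, rose (log2 0.88 ± 0.14), and of 28 matrix glycoprotein and hyaluronan genes HAS2, the main hyaluronan synthase, fell (-0.90 ± 0.15). SERPINB2, the plasminogen activator inhibitor PAI-2, was the 1 riser among 20 plasminogen and coagulation genes, 5% of the list. It went from 7.67, 6.91, 6.70 and 6.76 to 11.01, 9.57, 8.52 and 8.61 (log2 2.42 ± 0.59, limma adjusted p = 0.0299). Of the untreated cultures 3 were at background, and against the olfactory level the rise was at least 4.19-fold (log2 2.07). Its treated levels were highest in replicates 1 and 2, and without replicate 1 (limma adjusted p = 0.0605) or replicate 2 (0.128) it did not pass.

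Other members of the 12 largest rises were GCH1, PDLIM4 and LOC100044702. GCH1, the first enzyme of tetrahydrobiopterin synthesis, read 9.23, 9.50, 8.70 and 8.42 untreated and 11.47, 11.45, 10.72 and 11.06 treated (log2 2.21 ± 0.31, limma adjusted p = 9.94e-04). PDLIM4, an actin-associated PDZ and LIM protein, went from 10.56, 10.37, 9.95 and 10.06 to 12.64, 11.95, 12.54 and 12.48 (log2 2.17 ± 0.23, limma adjusted p = 1.43e-04). LOC100044702 has only a provisional name. It read 8.01, 10.73, 7.69 and 7.99 untreated and 12.52, 12.23, 12.33 and 12.27 treated, the same outline over the arrays as CXCL1 (log2 3.73 ± 0.80, limma adjusted p = 0.0146, and 0.0655 without replicate 1).

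**Figure D3:**
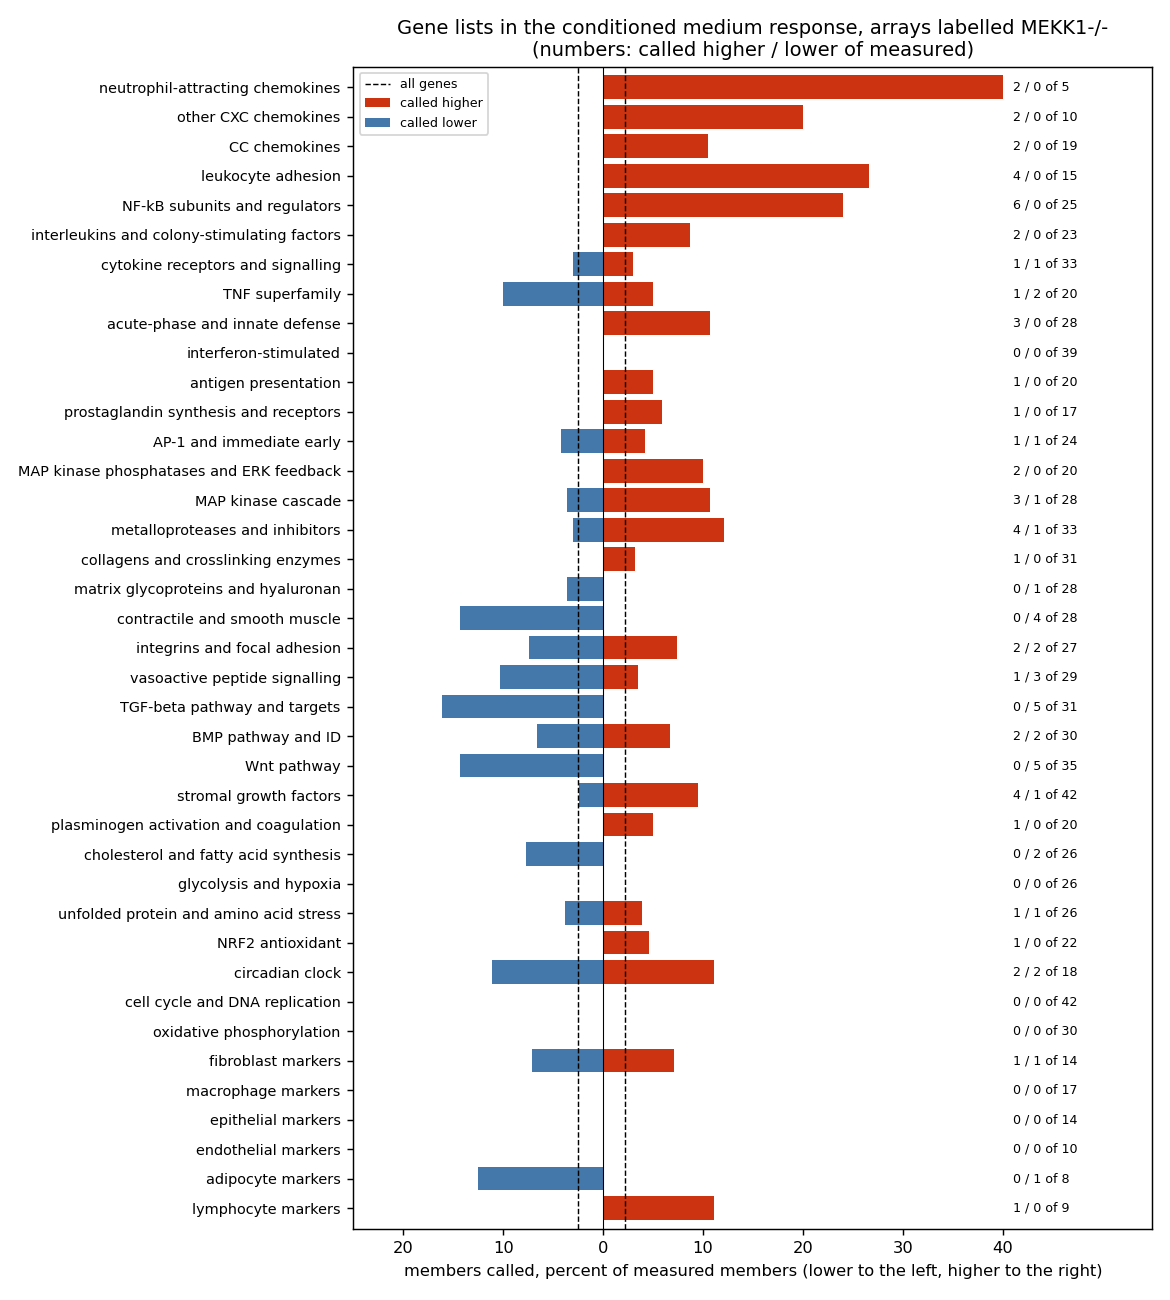
Share of each gene list that passed the test (x axis, percent of measured members), rises to the right in red and falls to the left in blue, with the counts at the right edge. Dashed lines mark the shares over all genes, 2.18% for rises and 2.51% for falls. Chemokine, adhesion and NF-kB lists reach to the right only, and the contractile, TGF-beta and Wnt lists to the left only.

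Receptors and ligands that act on vessel and muscle tone led the falls. AVPR1A, a receptor of the peptide vasopressin, read 9.87, 11.40, 10.92 and 11.12 untreated and 8.11, 9.23, 8.68 and 8.66 treated (log2 -2.16 ± 0.30, limma adjusted p = 9.03e-04). Replicate 1 was lowest in both states, and its pair changed by -1.76 against -2.17 to -2.46 in the others. EDN1, the constrictor peptide endothelin-1, fell from 9.75, 9.36, 9.01 and 9.07 to 7.95, 7.0, 7.56 and 7.34 (log2 -1.83 ± 0.23, limma adjusted p = 4.75e-04), with treated replicate 2 below the olfactory level and treated replicate 4 at its upper bound. Its receptor EDNRA rose by 0.81 ± 0.18, from 8.79 to 9.48 untreated to 9.75 to 10.03 treated. NPR3, the clearance receptor of natriuretic peptides, changed by -1.20 ± 0.26. Only 2 of its 4 treated arrays were above the olfactory level, and against that level the change was -1.17 or beyond. AVPR1A, EDN1, EDNRA and NPR3 were the 4 of 29 vasoactive genes that passed, 13.8% of the list against 4.69% over all genes.

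The contractile list of 28 genes had 4 falls and no rise, 25 members were lower, and its median log2 change was -0.25. MYLK, the kinase that switches on smooth muscle myosin, read 11.14, 10.62, 11.12 and 11.35 untreated and 8.66, 8.95, 9.76 and 9.82 treated (log2 -1.76 ± 0.27, limma adjusted p = 0.00161). SRF, the transcription factor of the contractile program, read 10.61, 9.92, 10.12 and 10.15 untreated and 9.63, 8.91, 8.93 and 9.0 treated (log2 -1.08 ± 0.18, limma adjusted p = 0.00313). Replicate 1 was highest in both states and all pairs changed by -0.98 to -1.20. LMOD1, an actin nucleator, changed by -0.94 ± 0.21 and TGFB1I1, the focal adhesion adaptor Hic-5, by -0.81 ± 0.11. For LMOD1 3 of the 4 treated arrays were above the olfactory level (-0.93 or beyond against that level). ACTA2, smooth muscle actin and the usual myofibroblast marker, remained bright at 14.45 to 14.87 untreated and 14.26 to 14.57 treated (log2 -0.21, 95% interval -0.41 to -0.01, limma adjusted p = 0.266). With the replicate block 9 members fell, and on the values as deposited none did (limma, 7 lower at an unadjusted p under 0.05), though the median was then -0.31. Without replicate 1 there were 4 falls and without replicate 2 there were 5.

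The promoters of SRF and of its LIM-domain partner FHL2 are shown because both genes fell and both hold CArG boxes, the motif that SRF is known to bind. Capitals mark the CArG box in the 120 bases before the start site (RefSeq, GRCm38.p6, gene strand), and Fhl2 has 2 listed start sites with a box before each.
Srf, chr17:46556163-46556282, minus strand, boxes 82 and 62 bases before the start: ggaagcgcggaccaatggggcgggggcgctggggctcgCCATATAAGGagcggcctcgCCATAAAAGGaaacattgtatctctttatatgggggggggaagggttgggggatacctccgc
Fhl2, chr1:43196762-43196881, minus strand, box 96 bases before the start: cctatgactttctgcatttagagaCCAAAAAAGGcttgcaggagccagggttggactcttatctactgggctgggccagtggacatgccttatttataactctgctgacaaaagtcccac
Fhl2, chr1:43163962-43164081, minus strand, box 31 bases before the start: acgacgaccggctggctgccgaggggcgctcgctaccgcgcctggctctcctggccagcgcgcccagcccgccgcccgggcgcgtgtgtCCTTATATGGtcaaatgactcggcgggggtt

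A CArG box stood in 1.28% of all promoters, 1.52% of those of rises and 2.2% of those of falls. Among genes that fell by at least 1 it stood in 3 of 33 promoters (9.09%). These belong to 2 of 29 genes, SRF and FHL2, and FHL2 counts with both of its start sites. Among genes that rose by at least 1 it stood in 2 of 54 promoters (3.7%), those of ARRDC4 and BLVRB. FHL2 read 11.52, 11.65, 12.01 and 12.21 untreated and 10.35, 9.98, 10.49 and 10.43 treated (log2 -1.53 ± 0.23, limma adjusted p = 0.00151).

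**Figure D4:**
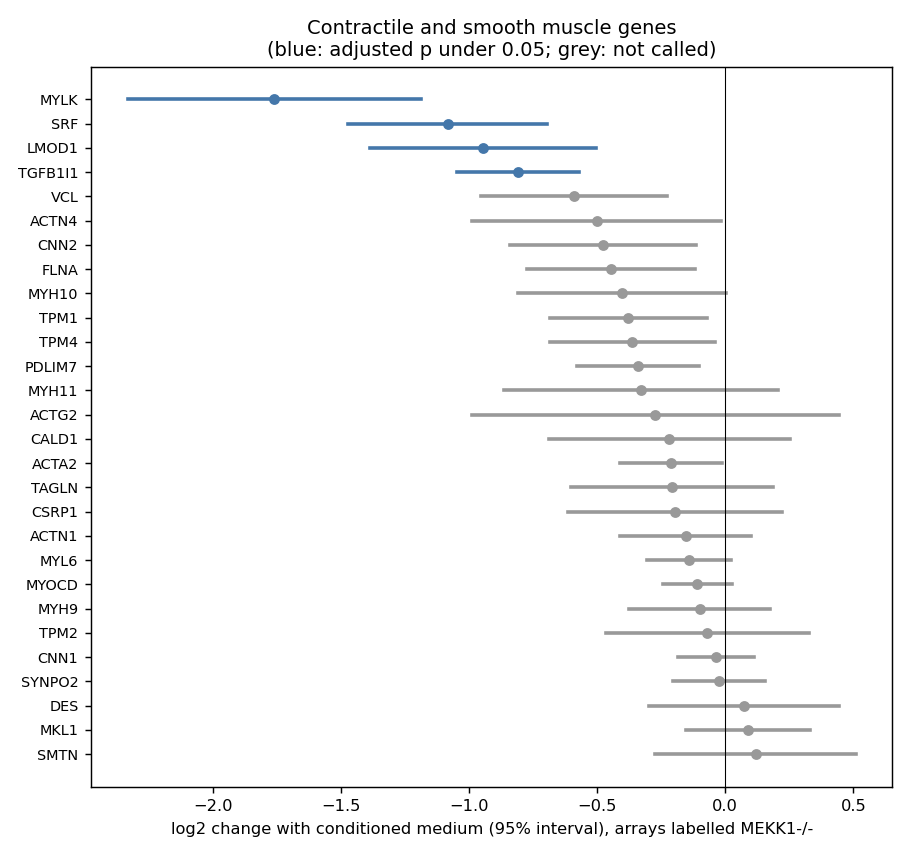
Log2 change with conditioned medium (x axis) of the 28 measured contractile and smooth muscle genes, as points with 95% intervals from the limma fit. The 4 genes past the test, in blue, run from -1.76 to -0.81, and 25 of the 28 points lie below 0.

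In the TGF-beta list of 31 genes 5 fell and none rose: WISP2, a matricellular CCN protein (log2 -1.31 ± 0.24), TGFB1I1, AMOTL2 (-0.60 ± 0.16), the signal transducer SMAD2 (-0.53 ± 0.08) and, named outside the rule, the receptor TGFBR2 (-0.47). The Wnt list of 35 genes likewise had 5 falls and no rise. FZD2, a Frizzled receptor, read 11.20, 11.10, 11.43 and 11.33 untreated and 10.44, 9.51, 9.37 and 9.51 treated, so that treated replicate 1 was highest (log2 -1.56 ± 0.19, limma adjusted p = 4.32e-04). FZD5 and FZD7 changed by -1.31 ± 0.28 and -0.80 ± 0.17, the transcription factor TCF7L2 by -0.31 ± 0.07, and PORCN, which attaches a lipid to Wnt ligands and is named outside the rule, by -0.28. With the replicate block the TGF-beta list had 3 rises and 7 falls and the Wnt list 1 rise and 8 falls, and without both arrays of replicate 2 only 3 TGF-beta and 2 Wnt genes fell. Of 30 BMP and ID genes ID4 (-0.95 ± 0.13) and ID2 (-0.55 ± 0.14), inhibitors of basic helix-loop-helix factors, fell. ID2 was above the olfactory level on 2 of the 4 treated arrays (-0.50 or beyond against that level). The receptor ACVRL1 (0.72 ± 0.14) and the ligand BMP6 rose, the latter at background on 7 of the 8 arrays.

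In the list of 42 stromal growth factors and receptors 4 genes rose and 1 fell. The rises were the lymphatic factor VEGFC (log2 1.26 ± 0.34), NGFB, nerve growth factor (1.11 ± 0.28), the receptor PDGFRA (1.00 ± 0.23) and, outside the rule, the EGF receptor ligand AREG (0.78, with 3 of 4 untreated cultures at background). IGFBP5, which binds insulin-like growth factors, fell from 10.74, 12.26, 12.34 and 12.34 to 10.13, 10.74, 10.70 and 10.67 (log2 -1.36 ± 0.33, limma adjusted p = 0.0299). Replicate 1 was low in both states and its pair changed by -0.61 against -1.52 to -1.67 in the others. Without both arrays of replicate 1, 1 of the 42 rose and 1 fell. Without those of replicate 2, 1 rose and none fell (4 lower at an unadjusted p under 0.05), and IGFBP5 did not pass (log2 -1.31, limma adjusted p = 0.118). With the block 8 rose and 4 fell.

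Adhesion and signalling genes completed the largest falls. NEDD9, a docking protein of focal adhesions, read 10.38, 10.90, 10.73 and 11.08 untreated and 9.59, 8.73, 9.39 and 9.20 treated (log2 -1.54 ± 0.21, limma adjusted p = 8.88e-04). It was 1 of 4 called among 27 integrin and focal adhesion genes, beside falls of ILK (-0.39 ± 0.10) and rises of ITGA7 (0.73 ± 0.13) and PXN (0.26 ± 0.07), of which PXN did not pass with the replicate block (adjusted p = 0.0582). TMEM119, a membrane protein known from bone-forming cells, had the smallest standard error of the 12 largest falls and went from 11.87, 11.88, 11.74 and 11.81 to 10.71, 10.37, 10.24 and 10.27 (log2 -1.43 ± 0.11, limma adjusted p = 4.75e-06). MRVI1, a substrate of cyclic GMP-dependent kinase in smooth muscle, read 9.10, 8.90, 9.20 and 9.32 untreated and 7.71, 7.24, 7.69 and 7.53 treated (log2 -1.59 ± 0.13, limma adjusted p = 1.20e-05). Of its 4 treated arrays 3 were above the olfactory level (-1.56 or beyond against that level). NUAK1, a kinase of the AMPK family, changed by -1.54 ± 0.24, the BCL-2 family member BOK by -1.38 ± 0.28 and 1110067D22RIK, a gene named only by its clone, by -1.41 ± 0.21. All treated cultures lay below all untreated ones in each of them, which the rule for the largest falls required.

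Metabolic and growth lists were quiet or shifted slightly. Cholesterol and fatty acid synthesis had 2 falls among 26 genes, CYP51 (log2 -0.66 ± 0.16) and INSIG1 (-0.31 ± 0.08), with 24 members lower and a median of -0.23. Untreated replicate 1 had a mean level of 9.25 for this list against 9.81 to 9.95 in the other untreated cultures and 9.40 to 9.48 with conditioned medium. Without both arrays of replicate 1 there were 9 falls, and without those of replicate 2 none (limma, 6 lower at an unadjusted p under 0.05). Of 42 cell cycle genes, 30 oxidative phosphorylation genes and 26 genes of glycolysis and hypoxia none passed, and 7, 2 and 3 of them had an unadjusted p under 0.05. Over all 18132 genes 2940 had an unadjusted p under 0.05 (limma). With the block 1 cell cycle, 1 oxidative phosphorylation and 2 glycolysis genes rose, and 4 cell cycle genes and 1 glycolysis gene fell. Among 26 stress response genes ATF5 fell (-0.62 ± 0.16) and MYD116, the phosphatase subunit GADD34, rose (0.51 ± 0.13, but limma adjusted p = 0.0561 with the block). Of 22 antioxidant genes SQSTM1 rose (0.47 ± 0.13), though its treated and untreated arrays overlapped. Past the test were 7.69% of the cholesterol, 7.69% of the stress and 4.55% of the antioxidant list, against 4.69% over all genes. Of 18 clock genes NR1D1 (0.69 ± 0.15) and CRY2 (0.54 ± 0.12) rose while PER2 (-0.63 ± 0.10) and CLOCK (-0.48 ± 0.13) fell. Among marker lists, 1 of 14 fibroblast genes rose (PDGFRA) and 1 fell (TWIST1, -0.42), 1 of 8 adipocyte genes fell (PPARG, to background in all 4 treated cultures, a log2 change of -0.36 or beyond), and 1 of 9 lymphocyte genes rose (LCK, from background in all 4 untreated cultures, by at least 0.31).

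The comparison with MEKK1+/+ cells asks whether the response differs when the kinase is present. On the MEKK1+/+ arrays 909 genes passed, 5.01% of all, and 532 genes passed in both genotypes, 62.5% of the MEKK1-/- calls and 58.5% of the MEKK1+/+ calls. Of the 851 genes, 846 changed in the same direction on the MEKK1+/+ arrays. The interaction of genotype with conditioned medium was past the threshold in 0 genes (0% of all, limma), with 473 at an unadjusted p under 0.05 and 20 called by a z-test on z-scores. The 12 largest rises passed in MEKK1+/+ cells in 7 cases and the 12 largest falls in all 12, and since these genes were chosen for their change on the MEKK1-/- arrays the sizes are a description. CXCL1 went from a mean of 13.07 to 14.99 in MEKK1+/+ cells, a log2 change of 1.92 ± 0.97 against 4.03, and the difference between the genotypes was 2.11 with a 95% interval of -0.83 to 5.05. For SOD2 the MEKK1+/+ change was 0.62 and the difference 0.82 (interval -0.07 to 1.71), and for CCL2 1.02 and 1.20 (-0.60 to 3.01). In these 3 genes untreated MEKK1+/+ cells were brighter than untreated MEKK1-/- cells (13.47 against 12.75 for SOD2, 13.06 against 11.85 for CCL2), and levels with conditioned medium lay within 0.2 of each other. On the untreated MEKK1+/+ arrays the 17 macrophage markers had mean levels of 8.14 to 9.1, against 7.68 to 8.7 on the untreated MEKK1-/- arrays, and untreated MEKK1-/- replicate 2, which was high in these genes, had the highest of the latter. The part of these markers in the difference was not tested. CCL5 was lower in MEKK1-/- cells in both states, at means of 7.51 against 9.07 untreated and 10.05 against 11.69 treated. Its changes of 2.54 and 2.62 gave a difference of -0.08 (interval -1.63 to 1.47), in which the MEKK1-/- change was taken partly against background, the level of 2 of its untreated arrays. TMEM119 changed by -1.35 and -1.43, a difference of -0.08 (interval -0.40 to 0.23), the narrowest of those named in this paragraph.

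**Figure D5:**
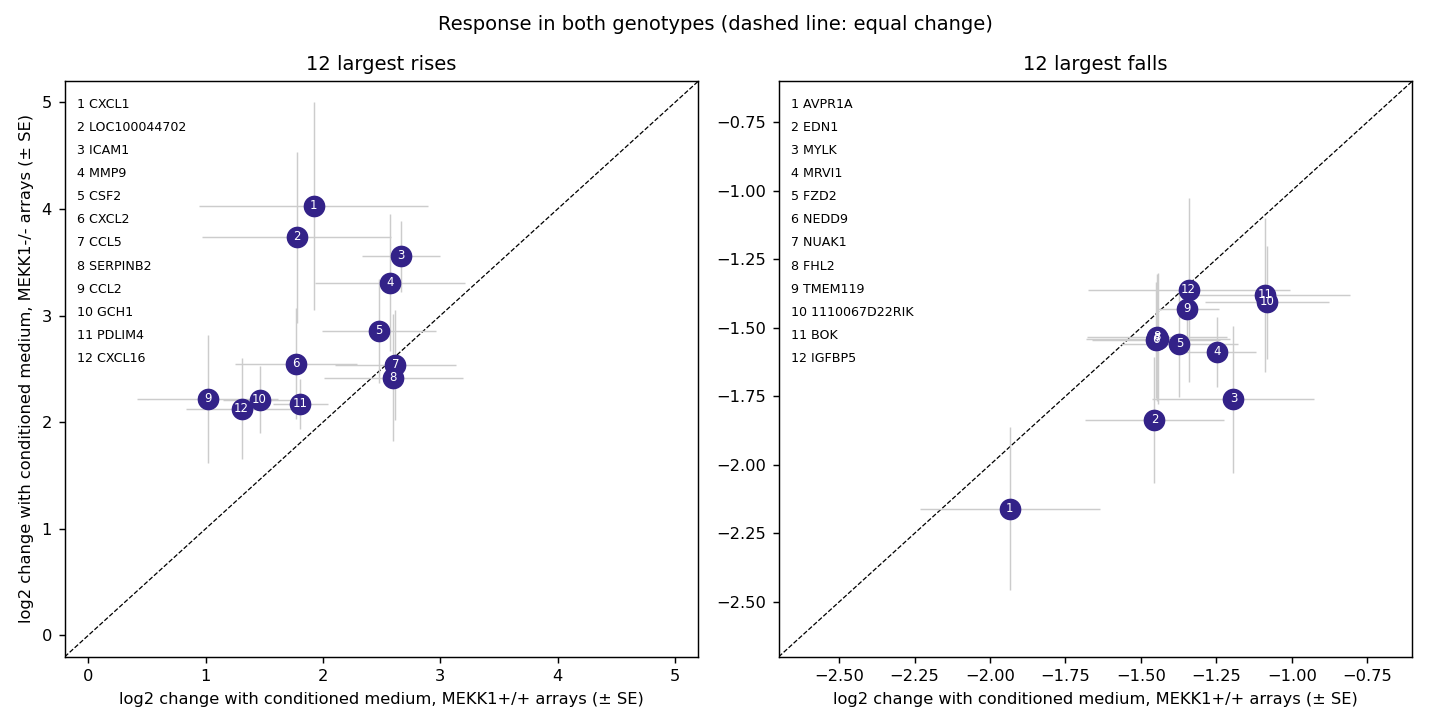
Log2 change with conditioned medium on the MEKK1+/+ arrays (x axis) and on the MEKK1-/- arrays (y axis) with standard errors, for the 12 largest rises (left) and falls (right), numbered by the key. On the dashed line the change is equal, and 10 of the 12 rises lie above it and 12 of the 12 falls below it, which the choice of genes by their MEKK1-/- change favours.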

How the data were processed

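RNA from 16 cultures was hybridized to Illumina Mouse 8 arrays. The authors deposited linear intensity values, a value per gene symbol and array, normalized by a core facility. The method of normalization, the treatment of background and the joining of probes are not given in the sources used here. Groups came from the labels. The deposited intensities were put on the log2 scale, quantile normalized between arrays and fitted with limma 3.58.1 in R 4.3.3 (lmFit and eBayes, group means of all 16 arrays, 12 residual degrees of freedom, no block), with Benjamini-Hochberg adjustment over 18132 genes. The methods' z-scores and z-test were run as alternatives, with the deposited scale, median scaling, a filter, a pseudocount of 16, array weights, trend and robust eBayes, the replicate block and each MEKK1-/- array left out. Leaving out both arrays of a replicate, and counting only log2 changes of at least 1, were added after the data were seen, as were bounds in which values under the olfactory receptor level of an array were raised to it. The fit was run on simulated data with a known shift and independent noise for each gene and array. That setting held no pairs, shared mice or other cell types, so it does not cover them. Figures used Python 3.11.15 and matplotlib 3.10.9.

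The gene lists and the rule for naming genes were chosen with earlier results of these data known. The rule took the 12 largest rises and the 12 largest falls among genes past the test whose groups did not overlap, up to 4 genes past the test from each of 39 lists, and genes the study names. Of 965 listed symbols 907 were measured, 21 by an older symbol. Replicate numbers were checked as pairs by correlating deviations from the group means of same-numbered arrays. For MEKK1-/- replicates 1 to 4 r was 0.505, 0.403, 0.219 and 0.251, all above 0.1, and the pairing comes from this check alone. For MEKK1+/+ it was -0.038, 0.485, 0.12 and 0.576. The number of arrays limits the precision: an exact permutation test of 4 against 4 cannot go below p = 0.0286.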

Additional observations from a re-analysis of the deposited data

Results flagged for a closer look

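In 186 groups of 4 arrays, 20 had 1 array whose gap to the nearest of the others took up most of the group's range. Chance marks about 1 in 20 such groups, and the genes share their arrays. Untreated replicate 2 stood high for CXCL1 (13.76), LOC100044702 (10.73), CXCL2 (8.32), TNIP1 (9.57) and SOD2 (13.64). Untreated replicate 1 stood low for IGFBP5 (10.74), ACVRL1 (7.5), CYP51 (9.64), INSIG1 (7.98) and LCK (6.95), and high for COL18A1 (9.71) and NGFB (9.32). With conditioned medium, replicate 1 was low for IGFBP5 (10.13), JAK2 (9.11) and CRY2 (8.43) and high for FZD2 (10.44) and SRF (9.63). Untreated replicate 3 was low for PXN (7.11). With conditioned medium, replicate 3 was high for NFKBIZ (12.09) and low for MAPK11 (8.33).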

How the results depend on the processing

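Against 851 genes (395 rises and 456 falls), the call count was 45 (34 and 11) on the values as deposited, 463 (221 and 242) with arrays scaled to the same median, 2047 (999 and 1048) by the z-test on z-scores, 1355 (647 and 708) with array weights, 1438 (729 and 709) with the replicate block within genotype, 1528 (767 and 761) with the replicate block on the 8 MEKK1-/- arrays alone, 95 (58 and 37) when only log2 changes of at least 1 were counted, and 512 (229 and 283) without both arrays of replicate 2. Leaving out 1 array gave 473 to 1029 genes (218 to 518 rises and 244 to 511 falls), with the count lowered over 1.5 times without untreated replicate 3 (473) or 4 (478) or treated replicate 2 (502), 3 (530) or 4 (498). The interaction had 20 calls by the z-test. Settings that stayed within 1.5 times of the main count were limma on z-scores (758), the filter on low genes (982), the pseudocount (838), the 8 MEKK1-/- arrays without a block (844), trend and robust eBayes (724) and the removal of both arrays of replicate 1 (768). Of 89 named genes past the test 23 still passed on the values as deposited. All 89 kept their direction there, but they had been chosen for passing the main test on the same arrays. CCL6, which did not pass, ranged from -0.25 to 0.61 with an array left out, and changed sign without untreated replicate 3 (-0.17) or 4 (-0.18) or treated replicate 1 (-0.11) or 2 (-0.25). The causes were not tested. Of the 851 genes, 43 were not above the olfactory receptor level in either group, where signal over background limits the size of a change.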

Other observations

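Further gene lists were made after their values were seen, so their counts and the values of their members are a description of these arrays. Of 66 ribosome biogenesis genes, 59 were lower, with a median log2 change of -0.17. PES1, a factor of large subunit assembly, read 8.74, 9.04, 9.23 and 9.12 untreated and 7.99, 7.77, 8.10 and 8.04 treated (log2 -1.06 ± 0.11, limma adjusted p = 1.38e-04). It was 1 of 5 that fell, with GRWD1 (-0.98 ± 0.20), and IMP3 rose. With the replicate block 14 fell and 2 rose, and on the values as deposited none passed (limma, 7 lower at an unadjusted p under 0.05). Of 28 targets of SRF and its cofactors, 25 were lower, with a median of -0.35, and 5 fell (MYLK, FHL2, SRF, LMOD1 and TGFB1I1), or 12 with the block and none on the values as deposited (9 lower at an unadjusted p under 0.05). Many of these genes also stand in the contractile list.

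TXNIP and ARRDC4, arrestin-like genes that respond to glucose through the factors MondoA and ChREBP, both rose. TXNIP, which binds thioredoxin and restrains glucose uptake, went from 10.97, 11.21, 11.41 and 11.40 to 12.22, 12.74, 12.68 and 12.73 (log2 1.35 ± 0.23, limma adjusted p = 0.00361). ARRDC4 went from 10.91, 11.17, 10.71 and 10.73 to 12.17, 12.52, 12.21 and 12.25 (log2 1.41 ± 0.12, limma adjusted p = 1.81e-05). Both passed on the values as deposited and without either replicate 1 or replicate 2. In MEKK1+/+ cells the changes were 1.38 and 1.42. The other 6 measured genes of this list of 8 did not pass.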
